A study of Homo sapiens with 12 samples.

Results

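The Sm, LSm and SMN complex genes are 41 genes that encode the proteins of small nuclear ribonucleoproteins (snRNPs) and the machinery that assembles them. They were taken by name from 2 deposited expression tables of 25369 gene rows each, by a rule that uses no measured value, and all 41 had a row in both tables. The members were nevertheless chosen with earlier results of these data known. The tables give FPKM (fragments per kilobase of transcript, relative to the mapped fragments of the library), a level per transcript length, for OCI-Ly7 and TMD8, 2 human diffuse large B-cell lymphoma lines of the germinal centre B cell-like and the activated B cell-like type. Cells of all 6 groups carried a guide RNA against PRMT5 whose expression doxycycline switches on, and were exposed to doxycycline at 20 ng/ml over 0, 3 or 6 days; each line and day had 2 libraries, which makes 12 in all. The day 0 cells carried the same uninduced guide and are the reference here; doxycycline without the guide and a guide against another target were not analysed here. The labels do not say whether a line was grown from 1 clone, how Cas9 was driven, or whether the 2 libraries of a day came from separate cultures, so p-values measure only the spread between these libraries, which may be technical. The days follow the sample titles and the design text; the labelled treatment protocol names other days in part.

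Sm proteins form a ring around each spliceosomal snRNA, and the related LSm proteins form rings on U6 snRNA in the nucleus and on the ends of decaying mRNAs in the cytoplasm. PRMT5, an arginine methyltransferase, together with its partner WDR77 and the substrate adaptor pICln (encoded by CLNS1A) dimethylates the arginine-glycine tails of the Sm proteins encoded by SNRPB, SNRPD1 and SNRPD3 and of LSM4. Methylated Sm proteins pass to the SMN complex (SMN and the Gemins), which loads them onto snRNA in the cytoplasm; the snRNA cap is then trimethylated by TGS1, snurportin (SNUPN) brings the particle into the nucleus, and coilin (COIL) organises the Cajal bodies in which it matures. The comparisons ask whether the mRNA levels of these genes changed after the PRMT5 guide was switched on. Methylation and assembly themselves were not measured.

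PRMT5 mRNA in OCI-Ly7 stood at 37.9 and 46.9 FPKM in the day 0 libraries, 29.3 and 32.1 FPKM in the day 3 libraries and 21.0 and 19.2 FPKM in the day 6 libraries. In TMD8 the PRMT5 levels were 64.8 and 60.5 FPKM (day 0), 41.3 and 42.0 FPKM (day 3) and 49.6 and 54.7 FPKM (day 6). The day 6 libraries lay below the day 0 libraries in both lines, by a log2 change of -1.04 (limma adjusted p = 0.0345) in OCI-Ly7 and -0.26 (adjusted p = 0.0262) in TMD8. Neither call held throughout with 1 library left out: that of OCI-Ly7 failed without any 1 of the day 0 or day 6 libraries (adjusted p up to 0.230), and that of TMD8 without either day 0 or the first day 6 library (up to 0.144). The guide acts on the gene and not on its mRNA, so the mRNA level is an incomplete check of the labels. In such bulk samples fewer cells of a type and less RNA per cell cannot be told apart. Summed FPKM lay between 397477 and 467844 per library, with 10092 to 11021 genes at 1 FPKM or more; read depth is unknown. The median tested gene lay below day 0, at a log2 change of -0.12 at day 3 and -0.13 at day 6 in OCI-Ly7, and of -0.27 and -0.31 at those days in TMD8. Each comparison is therefore given both on FPKM as deposited and after median-ratio scaling, which sets the typical gene to the same level in each library of a line; the scaled PRMT5 change was -0.89 (adjusted p = 0.0284) in OCI-Ly7 and 0.096 (adjusted p = 0.201) in TMD8. The row for the ribosomal RNA precursor RNA45S5 moved with the shift: in OCI-Ly7 its day 6 libraries held 16130 and 20185 FPKM, against 11163 and 10374 FPKM at day 0, and in TMD8 they held 20280 and 17581 FPKM, against 5222 and 7950 FPKM; its part in the results was not tested. The B cell markers MS4A1, CD79A, CD79B and PAX5 were all detected in both lines, with summed levels in OCI-Ly7 of 960 to 1176 FPKM at day 0, 698 to 770 at day 3 and 891 to 942 at day 6, and in TMD8 of 599 to 611, 475 to 504 and 452 to 474 FPKM on those days. Of 5 T and NK cell markers, 1 reached 1 FPKM in an OCI-Ly7 library and 0 did in TMD8, of 5 stromal and epithelial markers 2 and 0 did, and of 5 myeloid markers 1 did in each line. The myeloid sum was 1.26 to 1.79 FPKM in OCI-Ly7. In TMD8 nearly all of it was CD68, and it was 61.3 to 66.8 FPKM at day 0, 39.7 to 47.5 FPKM at day 3 and 42.3 to 47.8 FPKM at day 6. The part of these marker levels in the results was not tested.

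At day 0 genes of the Sm ring led the members in both lines. SNRPD2, which encodes Sm D2, was highest, at 751 to 762 FPKM in OCI-Ly7 and 347 to 370 FPKM in TMD8, and SNRPB, which encodes Sm B/B′, came next in each line, with means of 466 and 317 FPKM. In OCI-Ly7 they were followed by SNRPG (mean 424 FPKM), SNRPD1 and SNRPF (255 FPKM each, with overlapping libraries) and SNRPC of the U1 snRNP (205 FPKM). In TMD8 the third place was taken by LSM7, a subunit of both LSm rings, with a mean of 182 FPKM. Leaving SNRPN aside, SNRPD3 was the lowest ring gene in OCI-Ly7, at 65.7 FPKM, and SNRPE and SNRPD3 were lowest in TMD8, at 47.3 and 49.5 FPKM. At the lower end lay LSM11 of the U7 snRNP, with day 0 means of 0.945 FPKM in OCI-Ly7 and 3.85 FPKM in TMD8.

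The tables of the 2 lines were normalized separately, so levels across them are set side by side without a test. The day 0 mean was higher in OCI-Ly7 for 31 of the 41 members and higher in TMD8 for 10. Mean levels in OCI-Ly7 were 5.53 times those in TMD8 for LSM8, which marks the nuclear U6 ring, 4.98 times for SMN1, 3.98 times for SNRPG and 3.63 times for SNRNP40 of the U5 snRNP. They were 0.245 times those in TMD8 for LSM11, 0.465 times for LSM7, 0.485 times for GEMIN5, the Gemin that recognises snRNA, and 0.496 times for SNRNP200, the U5 helicase that unwinds U4 from U6. The SMN1 ratio rests on an uncertain split from SMN2, with 16.3 and 45.3 FPKM of SMN1 in the OCI-Ly7 day 0 libraries. The sum of SMN1 and SMN2 at day 0 was 67.6 and 66.8 FPKM in OCI-Ly7, and 29.04 and 28.3 FPKM in TMD8. SNRPN, an imprinted gene for a tissue-restricted relative of Sm B, was listed at 0 in all 6 TMD8 libraries but at 13.3 and 12.9 FPKM in the OCI-Ly7 day 0 libraries. All 41 members together made up 0.843 to 0.921% of all FPKM in the OCI-Ly7 libraries and 0.514 to 0.562% in those of TMD8.

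**Figure D1:**
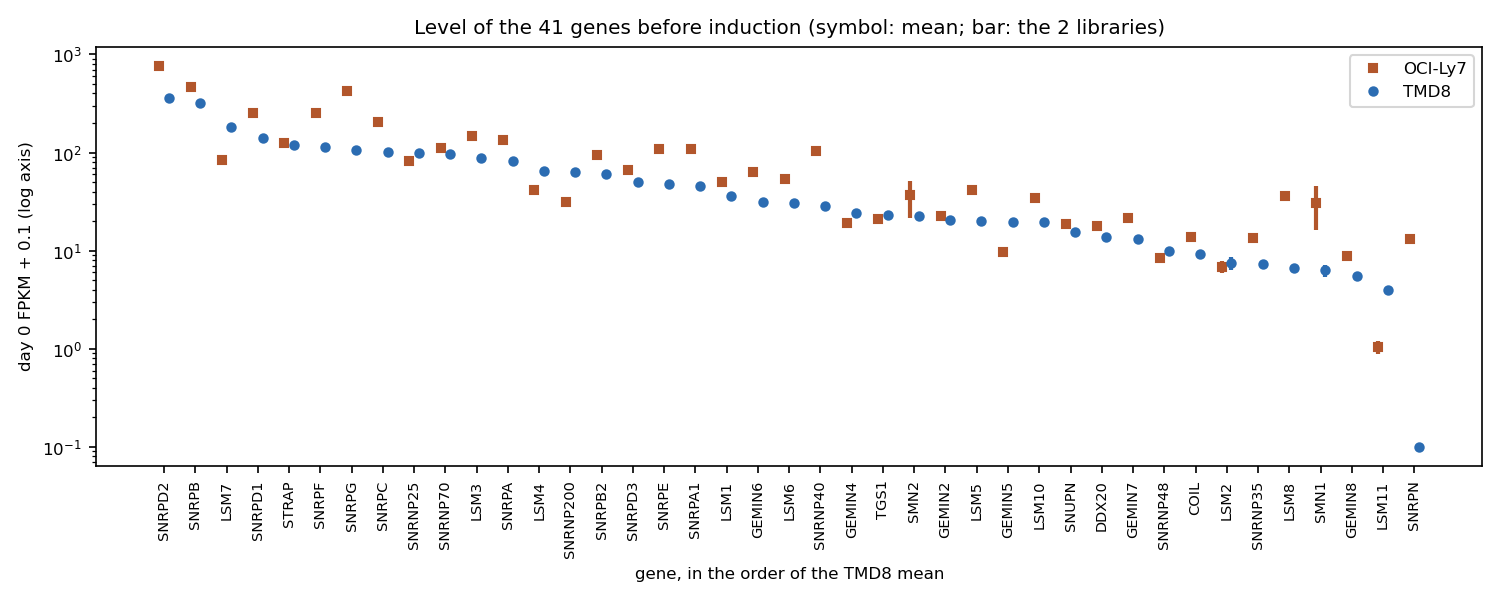
Day 0 level of each of the 41 members in OCI-Ly7 and TMD8, in FPKM + 0.1 on a log axis. Symbols are means and bars span the 2 libraries. Genes are ordered by their mean in TMD8. SNRPD2 and SNRPB lead in both lines, and SNRPN is at 0 in TMD8.

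SMN1 and SMN2 encode the SMN protein, the scaffold of the assembly complex, from near-identical copies, so reads cannot be divided between them with certainty. In TMD8 the 2 rows moved in opposite directions, and their sum did not pass on FPKM as given. SMN1 held 5.30 and 7.06 FPKM in the day 0 libraries of TMD8, 8.80 and 6.62 FPKM in those of day 3 and 17.9 and 20.5 FPKM in those of day 6. SMN2 held 23.7 and 21.3 FPKM in the day 0 libraries, 18.1 and 18.9 FPKM in those of day 3 and 9.79 and 7.64 FPKM in those of day 6. The day 6 and day 0 libraries of TMD8 did not overlap for either gene, and the log2 changes on the log2(FPKM + 1) scale were 1.50 (SE 0.17, limma adjusted p = 0.00242) for SMN1 and -1.28 (SE 0.12, adjusted p = 0.00183) for SMN2. After scaling they were 1.82 (adjusted p = 0.00478) and -0.94 (adjusted p = 0.0112). SMN2 then failed without either day 0 library, with an adjusted p of up to 0.0703.

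The sum of SMN1 and SMN2 in TMD8 was 29.04 and 28.3 FPKM in the day 0 libraries, 26.9 and 25.5 FPKM in those of day 3 and 27.6 and 28.1 FPKM in those of day 6. Its log2 change at day 6 was -0.040 (SE 0.064, adjusted p = 0.612). The share of the sum assigned to SMN1 was 64.6 and 72.8% at day 6, against 18.3 and 24.9% at day 0. After scaling the sum was higher at day 6 by 0.31 (SE 0.056, adjusted p = 0.0167). Without either TMD8 day 0 library that call was lost, with an adjusted p of up to 0.111.

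In OCI-Ly7 the split between the 2 copies differed between the duplicate day 0 libraries themselves. SMN1 lay at 16.3 and 45.3 FPKM and SMN2 at 51.3 and 21.5 FPKM in those day 0 libraries, so that SMN1 held 24.0% of the sum in one and 67.8% in the other. At day 6 SMN1 lay at 35.9 and 30.0 FPKM and SMN2 at 25.5 and 25.4 FPKM, inside the day 0 range in both cases. The OCI-Ly7 sum was 61.4 and 55.4 FPKM at day 6, against 67.6 and 66.8 FPKM at day 0, a log2 change of -0.20 (SE 0.11, adjusted p = 0.266), and after scaling -0.051 (adjusted p = 0.614). The change of the sum in OCI-Ly7 minus that in TMD8 was -0.16 (adjusted p = 0.356), and after scaling -0.36 (SE 0.080, adjusted p = 0.0111).

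**Figure D2:**
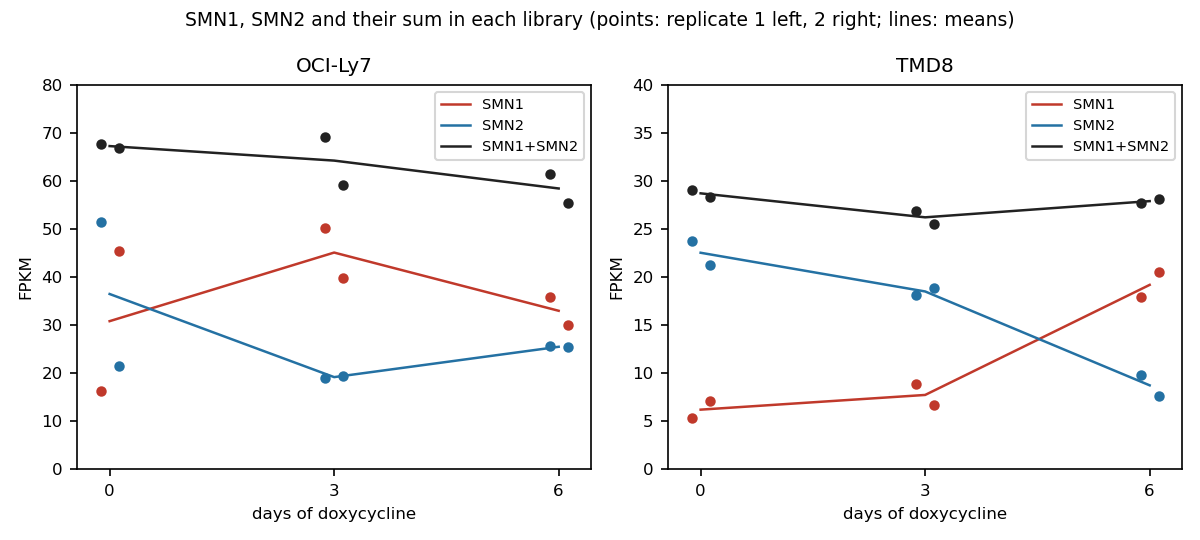
SMN1, SMN2 and their sum in FPKM in each library of OCI-Ly7 (left) and TMD8 (right) over days 0, 3 and 6 of doxycycline. In TMD8 SMN1 lies above SMN2 at day 6 and below it at day 0 while the sum stays between 25.5 and 29.04; in OCI-Ly7, whose axis is longer, the 2 day 0 libraries split the sum in opposite ways.

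At day 6 in OCI-Ly7, 7 of the 40 members tested were lower than at day 0 and 0 were higher, at a limma adjusted p under 0.05 over all genes tested. Over all 11016 tested genes 9.39% were lower and 1.98% higher. After scaling 7 of 40 members were again lower and 0 higher, against 8.05% and 6.71% of all genes. The members' median log2 change was -0.31, against -0.13 over all tested genes, and 33 of the 40 had a negative change; after scaling the medians were -0.16 and 0.0052. LSM11, at 0.218 to 1.11 FPKM, was too low for the test.

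On FPKM as given the lower genes were those of assembly, cap and Cajal body, and no ring gene was among them. Of 10 SMN complex genes 5 were lower (DDX20, GEMIN4, GEMIN5, GEMIN7 and STRAP), and of the 3 genes for the cap, import and the Cajal body 2 were lower (COIL and TGS1), against 9.39% of all genes. Their median changes were -0.45 and -0.58. None of the 8 Sm core, 5 U1 and U2, 5 U5 and U11/U12 or 9 LSm genes passed on FPKM as given, with medians of -0.16, -0.12, -0.34 and -0.36. In these 4 groups 2, 2, 3 and 3 genes had an unadjusted p under 0.05. Whether these groups of genes differed from each other was not tested. After scaling 6 of the 7 genes passed again; LSM10, which with LSM11 replaces Sm D1 and Sm D2 in the U7 ring, passed (-0.26, adjusted p = 0.0459) and DDX20 did not (-0.29, adjusted p = 0.0586).

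STRAP, a WD-repeat protein bound to the SMN complex and also known as unrip, lay at 78.8 and 74.9 FPKM at day 6 in OCI-Ly7, against 122 and 128 FPKM at day 0. Its day 3 libraries, at 124 and 116 FPKM, lay near those of day 0. The log2 change was -0.70 (SE 0.091, adjusted p = 0.0345), and after scaling -0.54 (adjusted p = 0.0235). TGS1, the cap trimethylating enzyme, lay at 12.6 and 12.1 FPKM at day 6, against 19.5 and 22.3 FPKM at day 0, a change of -0.71 (SE 0.10, adjusted p = 0.0345). GEMIN5 lay at 5.89 and 4.99 FPKM at day 6, against 8.93 and 10.1 FPKM at day 0, a change of -0.71 (SE 0.12, adjusted p = 0.0347). For TGS1 and GEMIN5 the day 3 libraries, at 17.1 and 17.6 FPKM and at 7.54 and 7.72 FPKM, lay between those of day 0 and day 6.

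GEMIN4, a Gemin that binds the helicase DDX20 (Gemin3), lay at 11.7 and 13.0 FPKM at day 6 in OCI-Ly7, against 18.3 and 20.0 FPKM at day 0 (log2 change -0.60, SE 0.12, adjusted p = 0.0398). COIL lay at 9.04 and 8.43 FPKM at day 6, against 13.1 and 14.1 FPKM at day 0 (-0.58, SE 0.098, adjusted p = 0.0347). Smaller changes were measured for GEMIN7, at -0.46 (SE 0.10, adjusted p = 0.0461), and DDX20, at -0.44 (SE 0.096, adjusted p = 0.046). In all 7 genes both day 6 libraries lay below both day 0 libraries. The 7 were chosen by the test on these same libraries, so this adds no separate support. None of the 7 passed without 1 of the day 0 or day 6 libraries, with adjusted p-values of up to 0.286, while each kept its direction in every such fit; without a day 3 library they passed, except DDX20 without the second one. After scaling 5 of the 6 genes passed in 0 of the 6 fits with 1 library left out, and STRAP in 1. With no filter on low values 0 of the 41 members passed in OCI-Ly7 at day 6. For these 7 genes the changes with 1 library left out ranged from -0.81 to -0.61 for GEMIN5 at the widest and from -0.47 to -0.45 for GEMIN7 at the narrowest.

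The Sm genes whose products PRMT5 methylates did not pass in OCI-Ly7. SNRPB lay at 428 and 376 FPKM at day 6, against 469 and 463 FPKM at day 0 (log2 change -0.22, adjusted p = 0.284; after scaling -0.062, adjusted p = 0.608). SNRPD1 lay at 267 and 250.2 FPKM at day 6, against 266 and 243 FPKM at day 0 (0.021, adjusted p = 0.901), and SNRPD3 at 64.5 and 63.3 FPKM, against 68.5 and 63.0 FPKM (-0.039, adjusted p = 0.808, with the opposite sign after scaling, 0.11). For SNRPD1 and SNRPD3 the libraries of the days overlapped; those of SNRPB did not. Other members below the call in OCI-Ly7 included GEMIN2, which holds the Sm proteins for assembly, with a change of -0.63 (adjusted p = 0.0688), and LSM7, with one of 0.49 (adjusted p = 0.156).

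**Figure D3:**
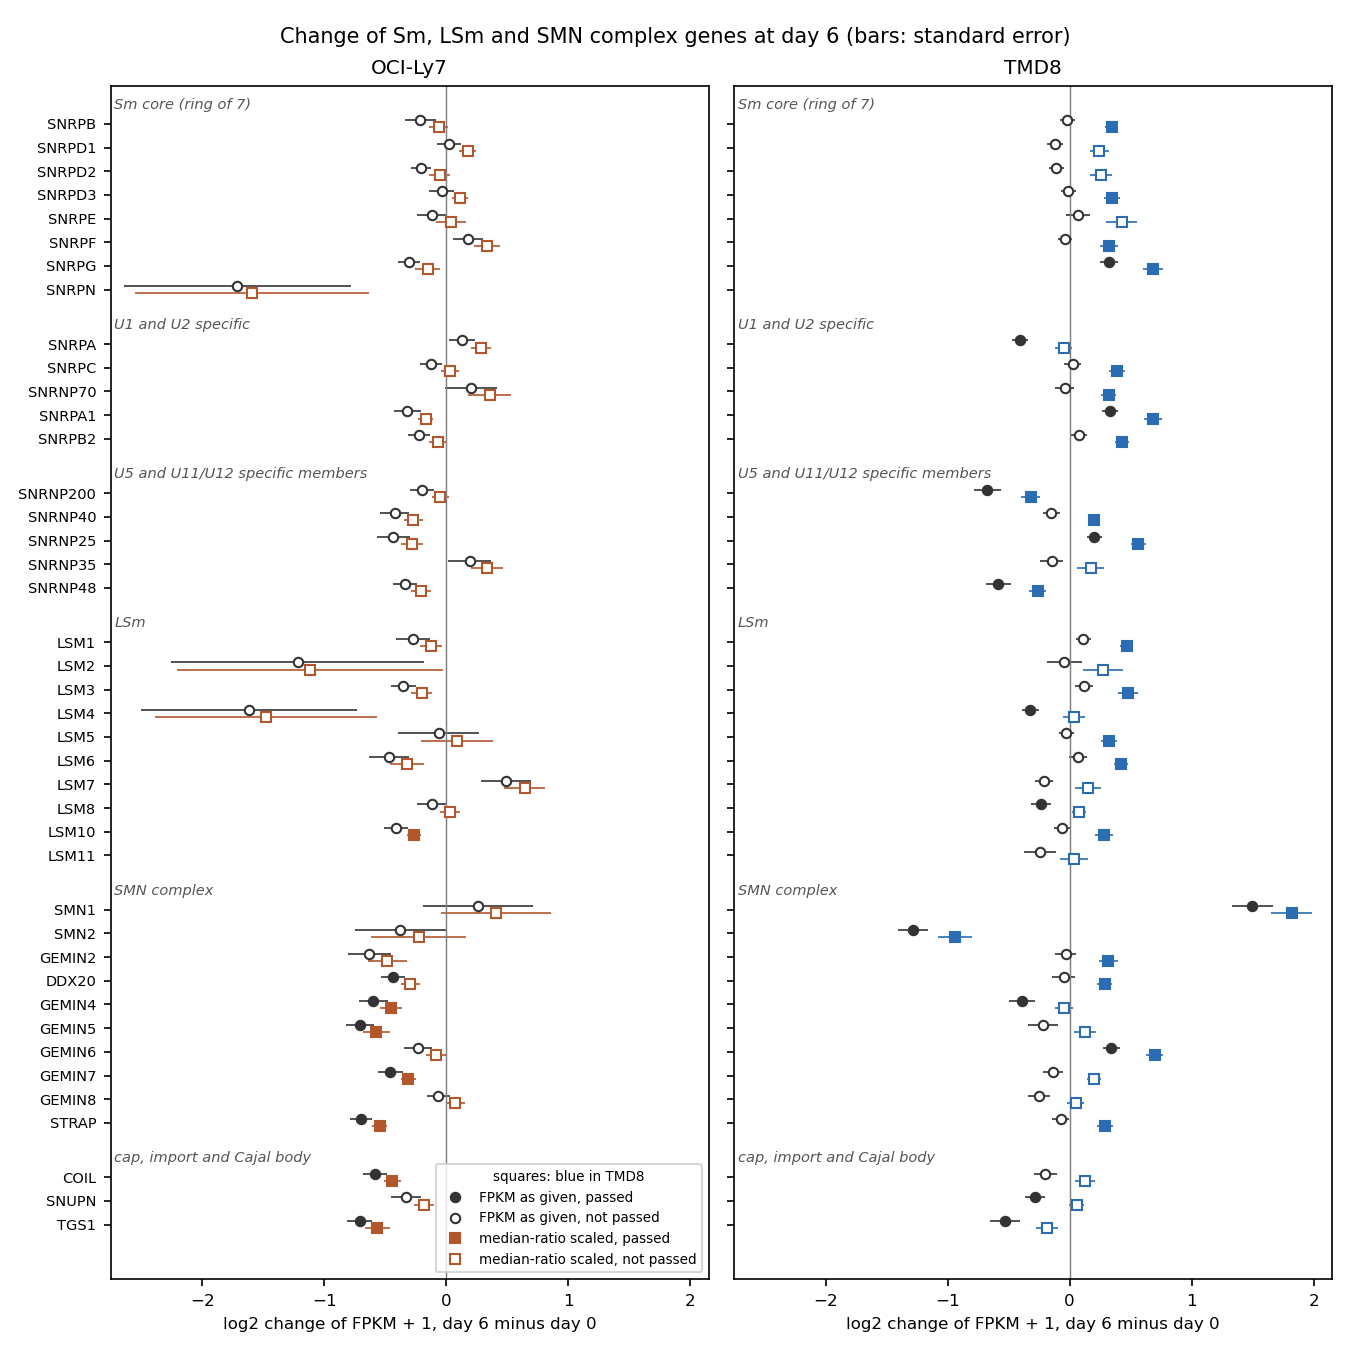
Log2 change at day 6 against day 0 of every tested member in OCI-Ly7 (left) and TMD8 (right), grouped by role, on the log2(FPKM + 1) scale. Circles are FPKM as given, squares are after median-ratio scaling, filled symbols passed an adjusted p under 0.05 and bars are standard errors; in OCI-Ly7 the filled symbols lie left of 0, among the SMN complex, COIL, TGS1 and, after scaling, LSM10, and in TMD8 the squares lie to the right of the circles.

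Promoter sequences are shown for the 3 OCI-Ly7 genes whose window held no annotated exon, so that the stretch upstream of these genes can be read beside their levels. The windows are the 250 bases before a RefSeq gene start on GRCh38.p14, from a table that matched 34 of the 41 members; for GEMIN7 the second of 3 listed starts is shown, since the window of the first, also free of exons, held neither motif. Capitals mark the ETS core CCGGAA or the E-box CACGTG, both searched on both strands; they do not overlap each other.
GEMIN4, chr17:752265-752514, minus strand: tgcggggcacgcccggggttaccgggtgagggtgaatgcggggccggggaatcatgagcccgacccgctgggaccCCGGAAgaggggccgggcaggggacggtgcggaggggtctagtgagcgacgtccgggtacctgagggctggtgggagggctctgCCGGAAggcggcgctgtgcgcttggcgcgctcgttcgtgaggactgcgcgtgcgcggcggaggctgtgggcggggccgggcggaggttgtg
GEMIN5, chr5:154938212-154938461, minus strand: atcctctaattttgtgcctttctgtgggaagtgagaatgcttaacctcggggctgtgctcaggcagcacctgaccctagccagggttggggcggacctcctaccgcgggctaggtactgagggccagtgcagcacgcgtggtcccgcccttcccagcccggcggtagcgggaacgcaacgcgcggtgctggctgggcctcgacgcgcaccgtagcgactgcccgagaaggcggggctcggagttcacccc
GEMIN7, chr19:45078945-45079194, plus strand: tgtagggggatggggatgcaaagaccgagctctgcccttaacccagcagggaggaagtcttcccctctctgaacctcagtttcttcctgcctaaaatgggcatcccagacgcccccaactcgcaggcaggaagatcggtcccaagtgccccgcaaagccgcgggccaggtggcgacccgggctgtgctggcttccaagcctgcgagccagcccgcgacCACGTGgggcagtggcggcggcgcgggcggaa
The 2 ETS cores of GEMIN4 start 175 and 91 bases before its gene start, and the E-box of this GEMIN7 window starts 32 bases before; the GEMIN5 window held neither motif. Across the 34 members the ETS core was found in 17 (50%), against 17.2% of all 27305 genes in the table. The E-box was found in 3 (8.82%), against 7.73% of all genes. All genes were taken here whether or not they are expressed in these lines. A gene counted if any of its windows held the motif. Of the genes lower in OCI-Ly7 on both scales, 5 of 6 had a window: the ETS core was in 2 (GEMIN4 and STRAP) and the E-box in 1 (GEMIN7). Of the 5 genes higher in TMD8, 4 had a window and 2 held the ETS core (SNRPA1 and SNRPG). A match describes the letters in the window and not a bound site.

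At day 6 in TMD8, 5 of the 40 members tested were higher than at day 0 (GEMIN6, SMN1, SNRNP25, SNRPA1 and SNRPG) and 9 were lower (GEMIN4, LSM4, LSM8, SMN2, SNRNP200, SNRNP48, SNRPA, SNUPN and TGS1). Over all 10456 tested genes 3.89% were higher and 51.7% lower. SMN1 and SMN2 count here as separate calls, although reads cannot be divided between them with certainty. Their sum did not pass on FPKM as given. The members' median log2 change was -0.068, against -0.31 over all tested genes. After scaling 20 members were higher and 3 lower, against 15.4% and 13.5% of all genes, with medians of 0.28 for the members and -0.00041 for all genes. The 5 higher genes were higher on both scales, and 3 of the 9 lower genes were lower on both (SMN2, SNRNP200 and SNRNP48). The 15 genes that passed as higher after scaling alone had scaled changes from 0.20 (SNRNP40) to 0.48 (LSM3), among them LSM1, which marks the cytoplasmic LSm ring (0.47, adjusted p = 0.00769), and SNRPB2 of the U2 snRNP (0.43, adjusted p = 0.00915). None of the 15 passed in each of the 6 fits with 1 library left out; LSM1 and LSM3 were among the 4 genes that passed in 5 of them (adjusted p up to 0.0575 and 0.0762), SNRPB2 in 4 (up to 0.0590) and SNRNP40 in 0 (up to 0.188). SNRPN, listed at 0, could not be tested.

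The higher genes in TMD8 came from several roles. SNRPA1 encodes the A′ protein of the U2 snRNP and lay at 59.3 and 56.5 FPKM at day 6 in TMD8, against 47.7 and 44.2 FPKM at day 0, with a dip at day 3 to 35.4 and 35.8 FPKM. Its log2 change was 0.33 (SE 0.067, adjusted p = 0.00958), and after scaling 0.69 (adjusted p = 0.00607). GEMIN6, which pairs with GEMIN7 in the SMN complex, lay at 39.1 and 40.1 FPKM at day 6, against 30.9 and 31.2 FPKM at day 0 (0.34, SE 0.072, adjusted p = 0.0104). SNRPG, the Sm G gene, lay at 133 and 134 FPKM at day 6, against 104 and 109.9 FPKM at day 0 (0.32, SE 0.072, adjusted p = 0.0127). SNRNP25, a subunit of the U11/U12 di-snRNP of the minor spliceosome, lay at 113 and 116 FPKM at day 6, against 102 and 96.8 FPKM at day 0 (0.20, SE 0.060, adjusted p = 0.0299). In each of these 4 genes both day 6 libraries lay above both day 0 libraries, the same libraries whose test picked them. After scaling all 4, with SMN1, passed in each of the 6 fits with 1 library left out. On FPKM as given GEMIN6 (adjusted p = 0.0635) and SNRPG (0.0782) failed without the first day 0 library, SNRPA1 (0.0533) without the second, and SNRNP25 without any 1 of the day 0 or day 6 libraries (up to 0.136).

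Among the lower genes of TMD8, SNRNP200 lay at 35.6 and 42.7 FPKM at day 6, against 67.7 and 58.3 FPKM at day 0. Its log2 change was -0.67 (SE 0.11, adjusted p = 0.00514), and after scaling -0.32 (SE 0.079, adjusted p = 0.0355). SNRNP48, another U11/U12 subunit, lay at 5.66 and 6.86 FPKM at day 6, against 10.2 and 9.54 FPKM at day 0 (-0.58, SE 0.10, adjusted p = 0.00604; after scaling -0.26, adjusted p = 0.0436). Both genes passed on FPKM as given in every fit with 1 library left out; after scaling they passed in 1 of 6 such fits, with adjusted p-values of up to 0.192. SNRPA, which encodes the A protein of the U1 snRNP, lay at 62.6 and 59.9 FPKM at day 6, against 85.0 and 78.3 FPKM at day 0 (-0.41, SE 0.066, adjusted p = 0.00501), and TGS1 at 14.1 and 17.2 FPKM, against 23.9 and 22.1 FPKM (-0.53, SE 0.12, adjusted p = 0.0131). After scaling the 2 changes were -0.049 (adjusted p = 0.631) and -0.18 (adjusted p = 0.173). GEMIN4 changed by -0.39 (adjusted p = 0.0227), but its scaled change was -0.046 (adjusted p = 0.68). The remaining lower genes changed sign with the scaling: LSM4 lay at -0.32 as given and 0.036 scaled, SNUPN at -0.28 and 0.057, and LSM8 at -0.24 and 0.077. Without the first day 0 library TGS1 (adjusted p = 0.0778), LSM4 (0.0659) and GEMIN4 (up to 0.130, also without the first day 6 library) did not pass on FPKM as given; LSM8 failed in each of the 6 fits, and SNUPN without either day 0 or the first day 6 library.

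Of the 3 Sm genes for PRMT5 substrates 0 passed on FPKM as given in TMD8 at day 6, and 2 were higher after scaling (SNRPB and SNRPD3). SNRPB lay at 303 and 322 FPKM at day 6, against 323 and 311 FPKM at day 0 (log2 change -0.018, adjusted p = 0.807; after scaling 0.35, adjusted p = 0.0117). SNRPD3 lay at 49.4 and 48.9 FPKM at day 6, against 51.1 and 47.9 FPKM at day 0 (-0.0092, adjusted p = 0.911; after scaling 0.35, adjusted p = 0.0192). SNRPD1 lay at 133 and 127 FPKM at day 6, against 141 and 141 FPKM at day 0, and passed on neither scale (-0.12, adjusted p = 0.159; after scaling 0.24, adjusted p = 0.0703). The scaled call of SNRPB was lost without either TMD8 day 0 library (adjusted p up to 0.0853), and that of SNRPD3 without either of these or the first day 6 library (up to 0.103). By role, the scaled calls in TMD8 were 4 higher of 7 Sm core genes, 4 of 5 U1 and U2 genes, 5 of 10 LSm genes, 5 of 10 SMN complex genes, 2 of 5 U5 and U11/U12 genes and 0 of 3 genes for the cap, import and the Cajal body, against 15.4% of all genes. Lower after scaling were 2 of the U5 and U11/U12 genes and 1 SMN complex gene, SMN2, against 13.5% of all genes. SMN1 was among the higher SMN complex genes, and the split of reads between it and SMN2 is uncertain. Scaled median changes of these groups lay between 0.057, for the last group, and 0.39, for the U1 and U2 genes.

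At day 3 members passed in TMD8 and not in OCI-Ly7; the difference between the lines at day 3 was not tested. In TMD8 15 of 40 members were lower than at day 0 and 0 higher, against 41.5% and 1.50% of all genes, with a members' median of -0.22 and a median of -0.27 over all genes. After scaling 0 of the 40 passed, against 0.220% of all genes, with 4 at an unadjusted p under 0.05 and 7 of the 15 with a positive change. No member passed on FPKM as given without 1 of the day 0 or day 3 libraries of TMD8. Genes for 4 Sm proteins were among the 15 (SNRPB, SNRPD1, SNRPD2 and SNRPD3): SNRPB lay at 242 and 233 FPKM at day 3 in TMD8, against 323 and 311 FPKM at day 0 (log2 change -0.41, SE 0.060, adjusted p = 0.0212; scaled -0.11, adjusted p = 0.473). The largest day 3 changes among the 15 were those of SNRNP200 (-0.48, adjusted p = 0.0265), GEMIN4 (-0.45, adjusted p = 0.0277) and SNRPA (-0.44, adjusted p = 0.0212). In OCI-Ly7 0 of 40 members passed at day 3, with 6 at an unadjusted p under 0.05, against 0.145% of all genes called; after scaling it was 0 with 4, against 0.118%.

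Between day 6 and day 3, 6 members of TMD8 were higher and 1 lower, against 3.38% and 4.47% of all genes, and after scaling 10 were higher and 2 lower, against 6.56% and 5.10%. The higher genes on both scales were GEMIN6, SMN1, SNRNP25, SNRPA1, SNRPB and SNRPG. The lower gene on both scales was SMN2, whose reads cannot be divided from those of SMN1 with certainty. SNRPA1 had the change 0.69 (adjusted p = 0.013), and after scaling 0.74 (adjusted p = 0.0121), and SNRPB 0.40 (adjusted p = 0.0233), and after scaling 0.45 (adjusted p = 0.0152). No member passed on either scale without 1 of the day 3 libraries of TMD8. In OCI-Ly7 0 members passed as given between day 6 and day 3, with 8 at an unadjusted p under 0.05, against 0.218% of all genes called. After scaling STRAP was lower, with a change of -0.61 (adjusted p = 0.0332) and a value as given of -0.63 (adjusted p = 0.0785), against 4.52% of all genes.

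The day 6 changes differed between the lines for 9 of the 39 members tested in both, in a test of the change in OCI-Ly7 minus that in TMD8. The difference was above 0 for 2 members and below 0 for 7, against 18.4% and 6.30% of 9688 genes; after scaling it was above 0 for 1 and below 0 for 19, against 14.1% and 19.0%. The members' median difference was -0.21, against 0.16 over all genes, and after scaling -0.41, against -0.021. The most negative differences were those of SNRPA1 (-0.65, SE 0.13, adjusted p = 0.00904), SNRNP25 (-0.64, SE 0.15, adjusted p = 0.018), SNRPG (-0.63, SE 0.11, adjusted p = 0.00736), STRAP (-0.62, SE 0.10, adjusted p = 0.0061) and GEMIN6 (-0.58, SE 0.13, adjusted p = 0.0163). These 5 passed on both scales, and SNRPA1, SNRPG and STRAP did so as given in each of the 12 fits with 1 library left out. As given, GEMIN6 failed without the first TMD8 day 0 library (adjusted p = 0.0592), and SNRNP25 without either TMD8 day 0 library or the second one of OCI-Ly7 (up to 0.0604).

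On FPKM as given, STRAP passed in OCI-Ly7 only, while the SNRPA1 changes had opposite signs in the 2 lines and passed in TMD8 only. STRAP lay at 113 and 114 FPKM at day 6 in TMD8, against 122 and 117 FPKM at day 0 (log2 change -0.072, adjusted p = 0.398), beside its fall in OCI-Ly7. After scaling STRAP passed as higher in TMD8 and lower in OCI-Ly7, so on that scale its changes were opposite too. SNRPA1 lay at 91.1 and 84.0 FPKM at day 6 in OCI-Ly7, against 108 and 110.5 FPKM at day 0 (-0.32, adjusted p = 0.108), beside its rise in TMD8. The same held for SNRPG, which lay at 360.4 and 326 FPKM at day 6 in OCI-Ly7, against 422 and 427 FPKM at day 0 (-0.31, adjusted p = 0.0799). LSM3, shared by both LSm rings, had a difference of -0.47 (adjusted p = 0.025) and LSM10 one of -0.35 (adjusted p = 0.0376). Differences above 0 were those of SNRPA (0.54, SE 0.12, adjusted p = 0.0143) and SNRNP200 (0.48, SE 0.15, adjusted p = 0.0482). SNRPA lay at 152 and 141 FPKM at day 6 in OCI-Ly7, against 142 and 126 FPKM at day 0, with overlapping libraries, beside its fall in TMD8 as given. With 1 library left out LSM3 passed in 7 of 12 fits and LSM10 and SNRNP200 in 3 of 12, and SNRPA failed without the first TMD8 day 0 library or the second OCI-Ly7 one (up to 0.0631). After scaling SNRNP200 did not pass (0.27, adjusted p = 0.0792). The scaled SNRPA difference was 0.33, and 0.24 to 0.42 with 1 library left out. SNRPA did not pass in most of those scaled fits. By sign alone, 22 of the 39 members lay below day 0 in both lines at day 6 and 10 lay below it in OCI-Ly7 and above it in TMD8; after scaling these numbers were 5 and 21. Over the 9688 genes tested in both lines the same numbers were 5694 and 886, and after scaling 2295 and 2758. Within a line 7 members passed in no comparison of days on either scale: GEMIN8, LSM2, LSM7, LSM11, SNRNP35, SNRPE and SNRPN.

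**Figure D4:**
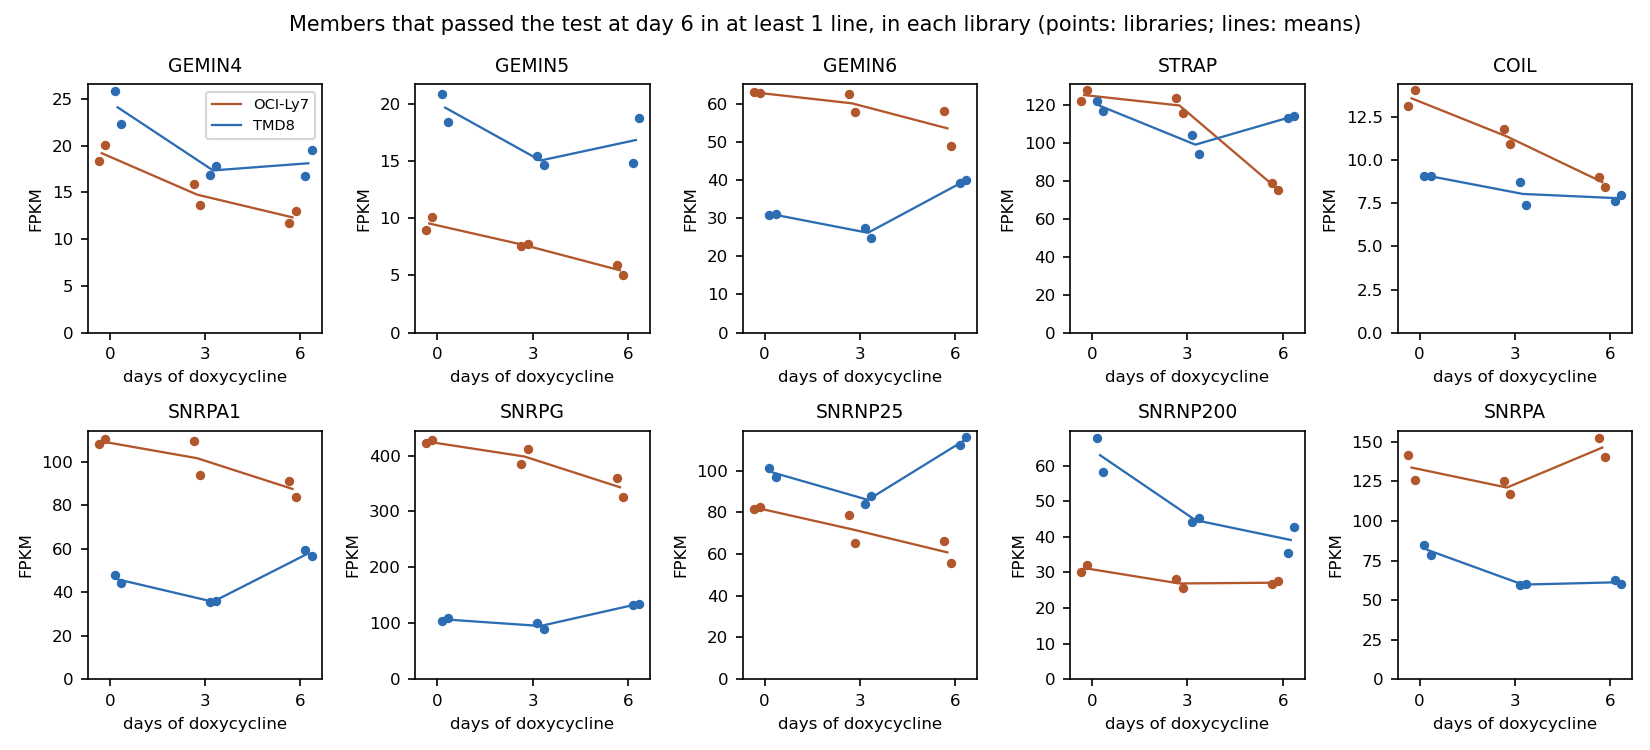
FPKM of 10 members in each library of OCI-Ly7 (orange, left of each day mark) and TMD8 (blue, right of it) at days 0, 3 and 6 of doxycycline; points are single libraries and lines join the means of each day. STRAP, COIL, GEMIN4 and GEMIN5 lie below day 0 at day 6 in OCI-Ly7, and SNRPA1, SNRPG, GEMIN6 and SNRNP25 lie above day 0 at day 6 in TMD8.

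In 4 members besides SMN1 and SMN2 the duplicate libraries of an OCI-Ly7 day stood more than 1.5-fold apart: LSM5 and SNRPN at day 3, and LSM2, LSM4 and SNRPN at day 6. In TMD8 this held for 0 of the 40 members tested; over all tested genes it held for 5.63 to 10.9% in the days of OCI-Ly7 and 3.34 to 6.57% in those of TMD8. LSM4, the LSm gene whose arginine-glycine tail PRMT5 methylates, held 39.8 and 42.1 FPKM in the day 0 libraries of OCI-Ly7, 6.69 and 5.71 FPKM in those of day 3 and 37.2 and 3.88 FPKM in those of day 6. Both day 3 libraries and 1 day 6 library were thus low, and neither change passed (day 3 -2.55, SE 0.89, adjusted p = 0.618). In TMD8 LSM4 lay at 54.6 and 49.4 FPKM at day 6, against 65.7 and 64.6 FPKM at day 0, with no library of that kind.

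LSM2, a subunit of both LSm rings, lay at 10 FPKM in the first and was listed at 0 in the second day 6 library of OCI-Ly7, against 5.76 and 7.80 FPKM at day 0. LSM5 lay at 42.2 and 19.4 FPKM at day 3, and between 39.1 and 43.6 FPKM in the other 4 OCI-Ly7 libraries. SNRPN held 13.3 and 12.9 FPKM in the day 0 libraries, 24.1 and 11.6 FPKM in those of day 3 and 11.1 and 0.535 FPKM in those of day 6. SNURF, which shares its transcript with SNRPN and was chosen after its values were seen, lay at 89.8 and 99.1 FPKM at day 6, against 88.3 and 95.1 FPKM at day 0. The sum of SNRPN and SNURF was 102 and 108 FPKM in the day 0 libraries, 97.4 and 84.9 FPKM in those of day 3 and 101 and 99.6 FPKM in those of day 6. The duplicates of day 6 lay closer together in the sum than in SNRPN; those of day 3 did not in FPKM, since SNURF was at 73.3 FPKM in both. On GENCODE v29 names 24 of the 41 members overlap another annotated gene and 14 a protein-coding one, among them SNRPA, SNRNP25, GEMIN7, TGS1, LSM3 and LSM7; it is not stated whether counting used strand, so reads of such pairs may be mixed.

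**Figure D5:**
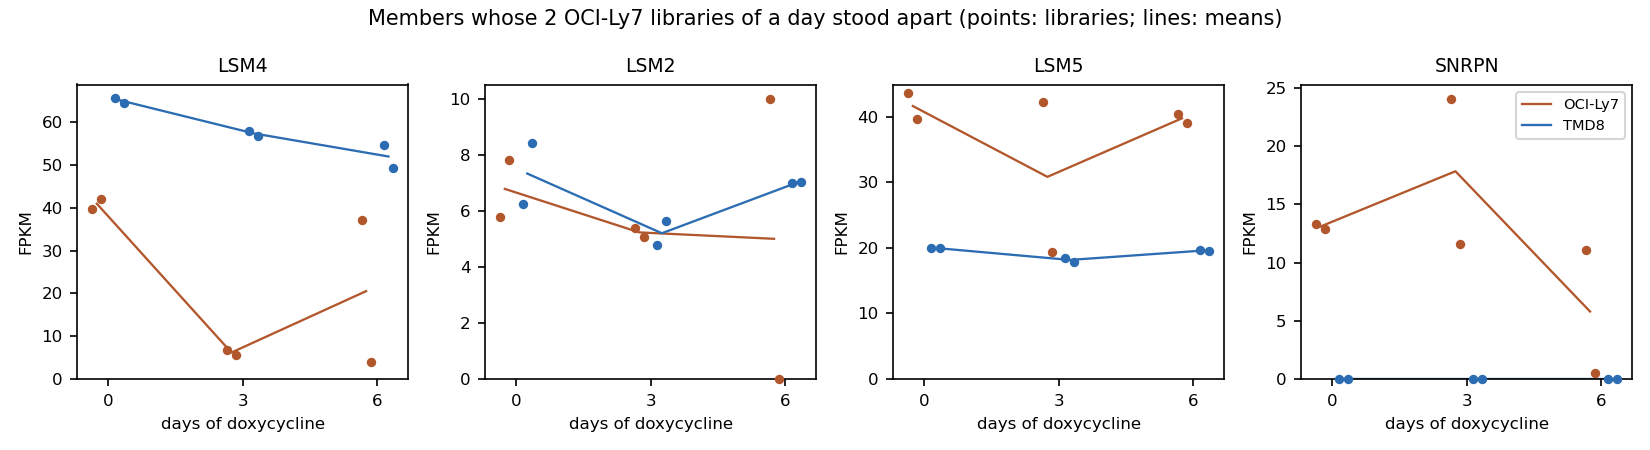
FPKM of LSM4, LSM2, LSM5 and SNRPN in each library of OCI-Ly7 (orange) and TMD8 (blue) at days 0, 3 and 6 of doxycycline; points are single libraries and lines join the means of each day. LSM4 is at 6.69 and 5.71 in both OCI-Ly7 day 3 libraries and at 37.2 and 3.88 in those of day 6, while the TMD8 duplicates lie close together.

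In 55 further genes of snRNP biology, in lists that take in the methylosome, snRNA transport, the U2, U5 and minor spliceosomal particles, decapping and histone mRNA 3′ ends, 14 were lower and 0 higher at day 6 in OCI-Ly7, with a median of -0.32 beside -0.13 over all tested genes (after scaling 13 lower and 2 higher, with medians of -0.18 and 0.0052). In TMD8 20 were lower and 1 higher, with a median of -0.23 beside -0.31 over all tested genes (after scaling 2 lower and 13 higher, with medians of 0.13 and -0.00041). Of all tested genes 9.39% were lower and 1.98% higher in OCI-Ly7 and 51.7% lower and 3.89% higher in TMD8; after scaling 8.05% were lower and 6.71% higher in OCI-Ly7, and 13.5% lower and 15.4% higher in TMD8. In OCI-Ly7 3 of 6 methylosome genes were lower, PRMT5 itself, WDR77 (-0.67, adjusted p = 0.0345) and the kinase RIOK1 (-0.57, adjusted p = 0.043), as were 3 of 8 genes for transport, among them the import receptor KPNB1 (-0.65, adjusted p = 0.0347) and the cap-binding NCBP1 (-0.59, adjusted p = 0.0357). Among the lower spliceosomal genes of OCI-Ly7 were EFTUD2, the U5 GTPase (-0.92, adjusted p = 0.0345), and PHF5A of SF3B (-0.72, adjusted p = 0.0384). There 3 of 10 U2 and 3 of 11 U5 and tri-snRNP genes were lower. After scaling 3 of 6 methylosome, 3 of 8 transport, 3 of 10 U2 and 2 of 11 U5 and tri-snRNP genes were lower. The 5 further minor spliceosome genes had a median above 0 in OCI-Ly7, with 3 changes above 0 and 2 below. That median was 0.34 as given, with 0 passing, and 0.49 after scaling, with 2 higher. Among these further genes, fits with 1 library left out are given for PRMT5 alone. In TMD8 the higher gene was PPIH, a cyclophilin of the tri-snRNP (0.49, adjusted p = 0.00375; after scaling 0.85). Lower genes of TMD8 included DCP1A, a decapping cofactor of the LSm1-7 pathway (-0.80, adjusted p = 0.00519; after scaling -0.48, adjusted p = 0.0233), and SYMPK, a scaffold of 3′ end processing (-0.73, adjusted p = 0.00286; after scaling -0.37, adjusted p = 0.0196). The difference in the PHF5A change between the lines was -0.91 (adjusted p = 0.00636).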

How the data were processed

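RNA was sequenced from 12 libraries of 2 lines. Per the labels' protocols RNA was extracted with an RNeasy Plus mini kit and libraries were made with an Illumina TruSeq RNA kit; the submitters' processing notes name HISAT, StringTie and hg19; versions and settings are not given in the sources used here. FPKM per gene, 1 table a line, are as deposited by the authors, so depth, counts and counting intervals are not known. FPKM are relative to the library total, so a change in a few very abundant rows shifts the others.

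Here log2(FPKM + 1) was tested with limma 3.58.1 in R 4.3.3 (mean-dependent trend, 3 days of a line sharing 1 spread with 3 residual degrees of freedom), on genes with a mean of at least 1 FPKM over the 6 libraries of a line. The test was tried on simulated data. P-values are two-sided and Benjamini-Hochberg adjusted over all tested genes, with a threshold of 0.05; the log2 scale understates changes of low genes. The line difference subtracts the TMD8 effect from the OCI-Ly7 effect. SMN1 and SMN2 were summed before the logarithm in a fit of their own. All 41 members could be named, with per-library values for PRMT5, SMN1, SMN2, the genes of proteins with arginine-glycine tails and the members with the largest changes past the threshold without overlap between days (up to 6 in each direction at day 6, up to 3 elsewhere); from each further list up to 3 genes a line. The members and lists were chosen with earlier results of these data known. Sequences are RefSeq's on GRCh38.p14; GENCODE v29 on GRCh38 gave names only. Alternatives were pseudocount, filter, trend, scaling, the replicate number, fewer days and each library left out. A further marker of the B cell list is not reported here.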

Additional observations from a re-analysis of the deposited data

Results flagged for a closer look

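For 9 members the day 6 change differed between the lines in the test of the change in OCI-Ly7 minus that in TMD8, on log2(FPKM + 1). The difference was -0.65 for SNRPA1, -0.64 for SNRNP25, -0.63 for SNRPG, -0.62 for STRAP, -0.58 for GEMIN6, -0.47 for LSM3 and -0.35 for LSM10, and 0.54 for SNRPA and 0.48 for SNRNP200. Their limma adjusted p-values lay between 0.0061 (STRAP) and 0.0482 (SNRNP200). Of the 39 members tested 2 differences were above 0 and 7 below it, against 18.4% and 6.30% of 9688 genes. As given, only SNRPA1, SNRPG and STRAP held with any 1 library left out. The median difference over all tested genes was 0.16, and RNA45S5 stood higher at day 6 than at day 0 by different amounts in the lines; its part in these differences was not tested.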

How the results depend on the processing

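Median-ratio scaling moved the counts of members past the threshold to 0 (15 as given) at day 3 in TMD8, 23 (14) at day 6 in TMD8, 12 (7) between day 6 and day 3 in TMD8, 1 (0) between those days in OCI-Ly7, and 20 (9) for the line difference. Rescaling to an equal sum gave 0 at day 3 in TMD8, 4 (7 as given) at day 6 in OCI-Ly7, 1 between day 6 and day 3 in OCI-Ly7, and 14 for the line difference. With no filter 9 members passed at day 3 in TMD8 and 0 at day 6 in OCI-Ly7. With the compared days fitted alone 1 passed at day 3 in OCI-Ly7. Median-ratio scaling moved the shares of all genes too. At day 3 in TMD8 they were 1.50% higher and 41.5% lower as given, and 0.220% in either direction scaled. At day 6 in TMD8 they were 3.89% and 51.7%, and scaled 15.4% and 13.5%. For the line difference they were 18.4% above and 6.30% below 0, and scaled 14.1% and 19.0%.

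Deviations of same-numbered libraries correlated by -0.15 to 0.08 in TMD8 and -0.08 to 0.13 in OCI-Ly7. With 2 libraries a day, these values cannot show whether the replicate numbers pair the libraries. A replicate block gave 0 members at day 3 in TMD8, 2 between day 6 and day 3 in TMD8 and 4 at day 6 in OCI-Ly7. The replicate block with median-ratio scaling gave 0, 1 and 3 for these and 17 for the line difference.

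Scaling reversed the sign of these log2 changes in TMD8, with and without the replicate block. At day 3 they became 0.076 (SNRPD1), 0.085 (SNRPD3), 0.067 (SNRNP40), 0.10 (SNRNP25), 0.060 (LSM10), 0.056 (GEMIN6) and 0.033 (STRAP). At day 6 they became 0.35 (SNRPB and SNRPD3), 0.32 (SNRPF, SNRNP70, LSM5 and GEMIN2), 0.20 (SNRNP40), 0.036 (LSM4), 0.077 (LSM8), 0.28 (LSM10), 0.29 (DDX20 and STRAP), 0.057 (SNUPN), 0.096 (PRMT5) and 0.31 (SMN1 plus SMN2). The equal sum turned the day 6 changes to 0.063 (SNRPB), 0.071 (SNRPD3), 0.043 (SNRPF and SNRNP70), 0.039 (SMN1 plus SMN2), 0.051 (LSM5), 0.047 (GEMIN2), 0.013 (LSM10), 0.026 (DDX20) and 0.0094 (STRAP). The cause of these moves was not tested.

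With 1 library left out, the counts ranged from 0 to 21 at day 3, 7 to 14 at day 6 and 0 to 7 between them in TMD8, 0 to 1, 0 to 8 and 0 to 1 for the same comparisons in OCI-Ly7, and 3 to 12 for the line difference. With scaling too, a choice made after seeing the data, they ranged from 0 to 0, 5 to 22, 0 to 7, 0 to 1, 0 to 2, 0 to 1 and 16 to 21. The SMN sum ranged from -0.27 to -0.13 (scaled -0.098 to -0.0028) in OCI-Ly7 and from -0.057 to -0.022 (scaled 0.27 to 0.35) in TMD8. Day 6 changes in TMD8 that turned in some of these fits ranged from -0.062 to 0.026 (SNRPB), -0.056 to 0.037 (SNRPD3), -0.050 to 0.10 (SNRPC), -0.13 to 0.056 (SNRNP70), -0.14 to 0.043 (DDX20), -0.076 to 0.00029 (SNRPF) and -0.0088 to 0.14 (LSM6). Depth is unknown, and 2 libraries a day leave few degrees of freedom.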
